A study of Mus musculus with 20 samples.

Results

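The 7 genes described here encode the inhibitors of cyclin-dependent kinases (CDKs). They were taken by name as the 4 INK4 genes (Cdkn2a, Cdkn2b, Cdkn2c and Cdkn2d) and the 3 CIP/KIP genes (Cdkn1a, Cdkn1b and Cdkn1c), out of 21911 protein-coding genes of the mouse annotation. For each, peaks of trimethylated lysine 27 of histone H3 (H3K27me3) within 5 kb of a transcription start site (TSS), and KLF4 peaks and JMJD3 positions within the gene and 50 kb on each side, were listed. JMJD3, or KDM6B, is a demethylase of this lysine, and KLF4 is a transcription factor of the OSKM reprogramming mixture, in which it is joined by OCT4, SOX2 and c-MYC. The question was whether extra or missing JMJD3 went with a different H3K27me3 pattern at the locus that drives senescence.

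INK4 proteins bind CDK4 and CDK6 and keep them from cyclin D, whereas CIP/KIP proteins bind assembled cyclin-CDK complexes. Cdkn2a has separate first exons that give INK4A, which holds the retinoblastoma protein active, and ARF, which protects p53 by binding MDM2. Polycomb repressive complexes hold the INK4-ARF locus silent through H3K27me3 in young fibroblasts, and its activation during culture is a known barrier to reprogramming. Cdkn1c is an imprinted growth inhibitor expressed from the maternal chromosome.

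All cells were mouse embryonic fibroblasts (MEFs), used within 3 passages, or their progeny. By the labels, wild-type (WT) cells were Jmjd3+/+ of the strain C57BL/6J-OG2 and knockout (KO) cells were Jmjd3-/- of the strain C57Bl6J. Genotype and labelled strain therefore cannot be told apart. The study describes littermate WT and KO MEFs without the OG2 reporter for its KO reprogramming, and does not repeat this for its H3K27me3 ChIP-seq. The H3K27me3 lists came from untreated MEFs (WT and KO) and from OSKM-infected cells on day 5 and day 10, WT or KO, that received either the FLAG control or Jmjd3, in a medium with vitamin C. The KLF4 lists came from WT cells on day 5 of OSKM with the FLAG control or with JMJD3. The JMJD3 lists came from an anti-FLAG precipitation in WT cells with FLAG-JMJD3 on day 5 of OSKM, or of OSlowKM, the mixture labelled as low in KLF4. Each of these 14 groups was 1 library, and the reprogramming cultures are labelled as presumed intermediates, which can mix cells at different stages. With no replicates, no difference below has a replicate check and no p-value was computed. H3K27me3 lists held 3045 to 6954 peaks, the shortest being day 10 WT with JMJD3 and the longest WT MEFs. The scores have no stated scale, so a peak is described here by its score percentile, the share of peaks of the same list with a score at or below its own. A gene with no peak in a list had none over the authors' threshold, which does not show that the mark was absent.

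The sequences that the results turn on are shown first, in mouse build GRCm38, on the strand of the gene. KLF4 peaks lay upstream of INK4A and at the start of ARF, so the KLF4 peak of the FLAG list upstream of INK4A (chr4:89282689-89282901, minus strand, in the intron after the first exon of ARF) and the RefSeq promoter of ARF (chr4:89294570-89294869, minus strand) are given with KLF letters, GGGNGTGG on either strand, in capitals. The RefSeq INK4A promoter (chr4:89282143-89282442, minus strand) has the 61 bases amplified by the study's JMJD3 ChIP-qPCR primers at INK4A in capitals. The RefSeq promoters of Cdkn2c (chr4:109666707-109667006, minus strand) and Cdkn1a (chr17:29093519-29093818, plus strand) are shown because a JMJD3 position lay in each, with that position and 10 bases on each side in capitals.
INK4A KLF4 peak: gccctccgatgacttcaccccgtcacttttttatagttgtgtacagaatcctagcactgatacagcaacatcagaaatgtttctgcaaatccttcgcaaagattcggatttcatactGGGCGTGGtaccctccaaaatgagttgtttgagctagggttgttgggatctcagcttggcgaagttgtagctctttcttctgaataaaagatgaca
INK4A promoter: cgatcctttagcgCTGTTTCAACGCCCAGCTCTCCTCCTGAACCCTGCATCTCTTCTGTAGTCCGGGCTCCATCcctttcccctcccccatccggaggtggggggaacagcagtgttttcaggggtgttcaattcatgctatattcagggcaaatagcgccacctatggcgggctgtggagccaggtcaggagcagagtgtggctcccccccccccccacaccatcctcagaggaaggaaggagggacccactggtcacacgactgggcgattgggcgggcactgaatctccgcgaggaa
ARF promoter: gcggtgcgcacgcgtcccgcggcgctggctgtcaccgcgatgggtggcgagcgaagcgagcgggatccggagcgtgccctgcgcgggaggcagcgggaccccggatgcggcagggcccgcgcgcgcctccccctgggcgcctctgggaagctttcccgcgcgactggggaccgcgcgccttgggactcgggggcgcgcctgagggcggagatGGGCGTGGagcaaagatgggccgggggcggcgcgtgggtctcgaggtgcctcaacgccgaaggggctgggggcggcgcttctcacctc
Cdkn2c promoter: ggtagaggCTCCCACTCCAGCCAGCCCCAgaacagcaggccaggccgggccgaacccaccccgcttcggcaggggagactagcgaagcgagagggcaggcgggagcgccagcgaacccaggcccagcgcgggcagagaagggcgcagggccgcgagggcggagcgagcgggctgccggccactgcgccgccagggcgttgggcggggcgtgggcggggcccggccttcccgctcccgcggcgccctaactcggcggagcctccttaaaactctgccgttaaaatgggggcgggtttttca
Cdkn1a promoter: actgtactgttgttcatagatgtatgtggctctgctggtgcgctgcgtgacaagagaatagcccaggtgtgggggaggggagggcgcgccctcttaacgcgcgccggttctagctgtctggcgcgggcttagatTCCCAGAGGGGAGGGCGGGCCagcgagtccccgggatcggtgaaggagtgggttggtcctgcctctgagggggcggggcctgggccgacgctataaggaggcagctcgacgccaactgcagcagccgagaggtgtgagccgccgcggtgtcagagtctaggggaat

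Of the 7 genes, only Cdkn2a and Cdkn1c carried H3K27me3 peaks near their starts, within 5 kb, in any of the 10 lists. Cdkn2a had one in 6 lists and Cdkn1c in 9, whereas Cdkn2b, Cdkn2c, Cdkn2d, Cdkn1a and Cdkn1b had none in any list. In untreated MEFs, 2 of the 7 genes had a peak in WT (14.6% of all protein-coding genes did) and 1 in KO (10.3%). On day 5 the counts were 2 in WT with FLAG (14.7%), 0 in WT with JMJD3 (11%), 2 in KO with FLAG (13.7%) and 2 in KO with JMJD3 (13%). On day 10 they were 2 in WT with FLAG (12.1%), 1 in WT with JMJD3 (8.27%), 2 in KO with FLAG (12.8%) and 1 in KO with JMJD3 (11.7%). The share of CDK inhibitor genes with the mark was thus 2 of 7 or fewer in each list.

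**Figure D1:**
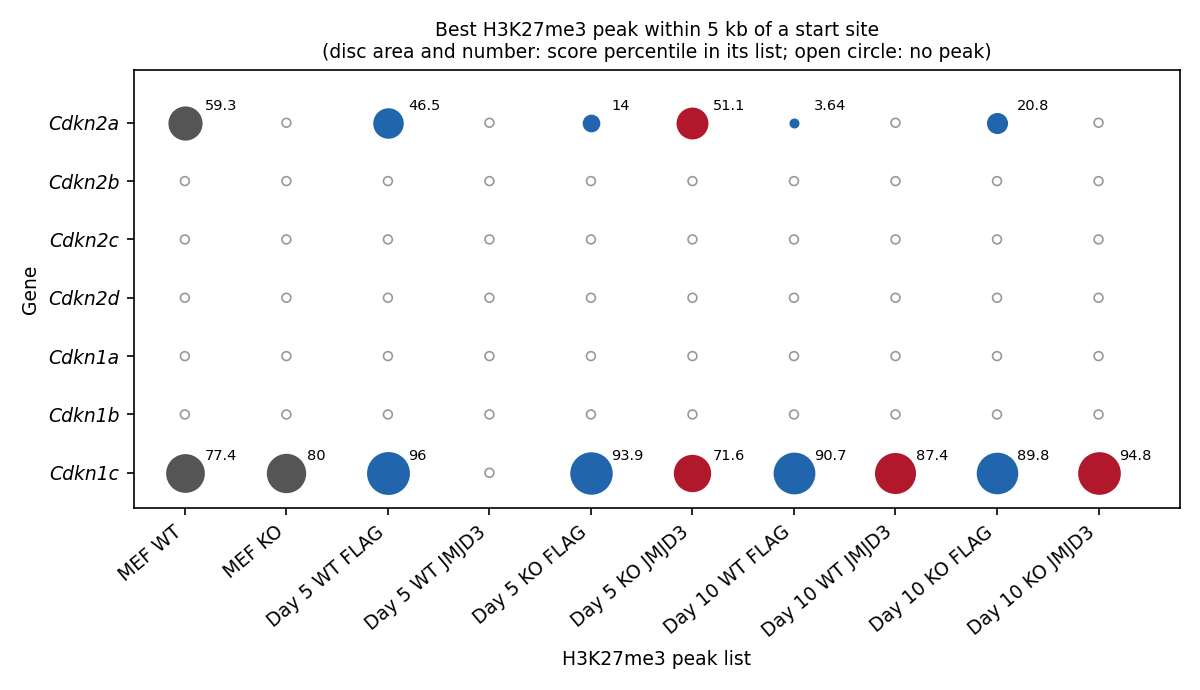
Best H3K27me3 peak within 5 kb of a TSS for the 7 CDK inhibitor genes (vertical axis) in the 10 lists (horizontal axis), with disc area and number giving the score percentile within the list and open circles where no peak was called (grey for MEFs, blue for FLAG, red for JMJD3). Cdkn1c holds high percentiles, 71.6 to 96.0, in 9 lists and is empty in day 5 WT cells with JMJD3, whereas Cdkn2a holds 3.64 to 59.3 in 6 lists.

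At Cdkn2a, peaks were called in each of the 4 FLAG lists, in 1 of the 4 JMJD3 lists (day 5 KO), in WT MEFs and not in KO MEFs. Joined in a chain where they overlapped, peaks of these 6 lists spanned chr4:89276237-89279306, over the first intron of INK4A and the exon shared with ARF. Their edges nearest to the INK4A start (chr4:89282192) lay 2886 to 4956 bp downstream of it. They did not all overlap one another, and no position was common to the 6 lists. No peak covered either start. In WT MEFs the best peak in this stretch had a score of 15.04 (percentile 59.3), and a second, overlapping one scored 6.63. WT MEFs also had the only peak between the ARF and INK4A starts, with a score of 7.83 at chr4:89289407-89290406. KO MEFs had no peak in the gene, and their nearest one, with a score of 12.11, lay 15.4 kb from the INK4A start in an intron of the neighbouring Gm12606, where WT MEFs (17.68) and day 5 KO cells with FLAG (11.3) had one as well. MEFs of both genotypes thus shared the outer peak and differed at the gene itself.

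On day 5, the Cdkn2a peak in WT cells with FLAG scored 12.18 (percentile 46.5) at chr4:89276952-89277951, and no peak was called with JMJD3 within 393 kb of either start of the gene. The same FLAG list held a second peak, with a score of 8.54, 9241 bp downstream of the INK4A start and past the end of the gene. In KO cells on the same day, the FLAG peak at chr4:89278075-89279074 scored 7.36 (percentile 14). The JMJD3 peak, 2 bp from the position of the WT FLAG peak, scored 13.48 (percentile 51.1) and did not overlap the KO FLAG peak. These lists differed in length (6428 and 5064 peaks in WT, 5643 and 6539 in KO), and with each cut to the 3045 highest-scoring peaks none of the 4 day 5 lists had a peak at Cdkn2a.

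On day 10, neither FLAG peak at Cdkn2a had a counterpart with JMJD3. The WT FLAG peak scored 6.74 (percentile 3.64), close to the lowest score in its list, 6.62, and its edge lay 4956 bp from the INK4A start, just inside the 5 kb window. The KO FLAG peak scored 7.59 (percentile 20.8). With JMJD3 the nearest peaks were 393 to 394 kb from the start of ARF in WT and KO alike, in the direction of Dmrta1, the next gene beyond Cdkn2b, which had a peak near its TSS in 10 of 10 lists.

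**Figure D2:**
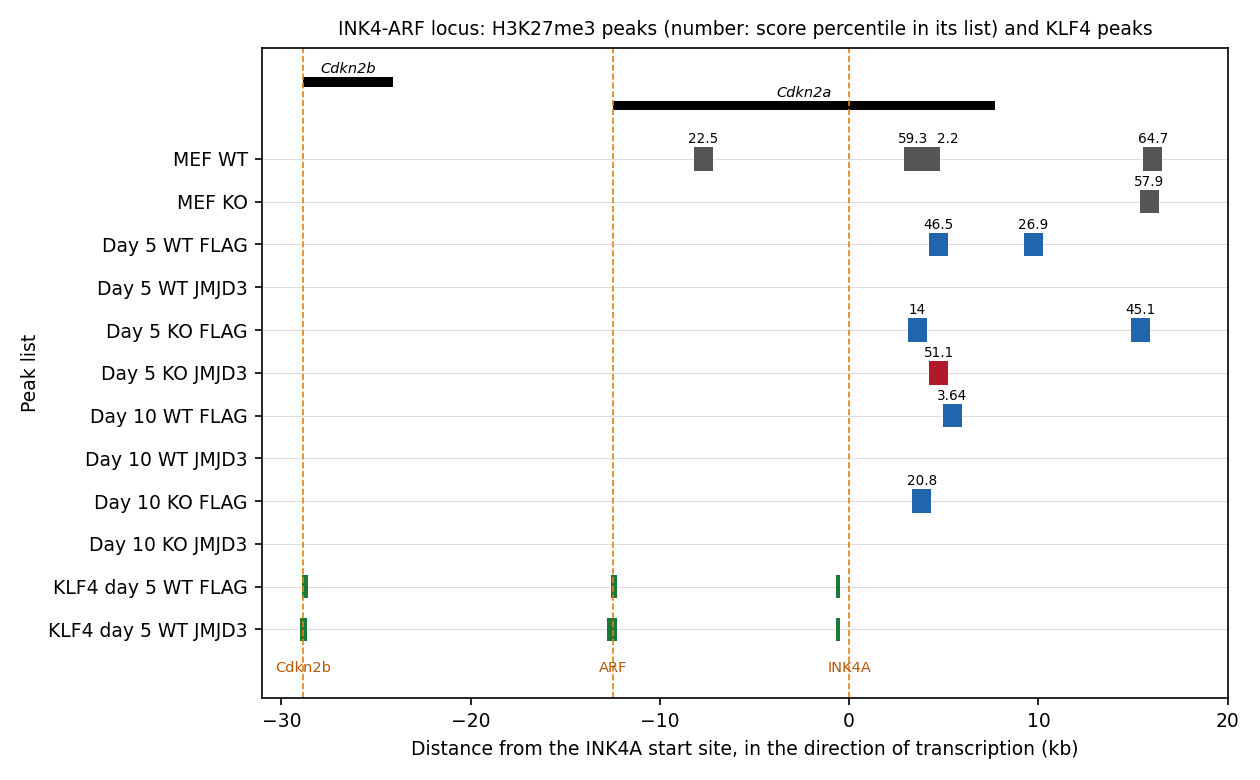
H3K27me3 peaks (1000 bp bars with their score percentile) and KLF4 peaks (green bars of their own width) by list at the INK4-ARF locus, against distance from the INK4A start in kb, with gene bodies on top and the starts of INK4A, ARF and Cdkn2b as dashed lines. The peaks that 6 lists have in this part of Cdkn2a fall about 3 to 6 kb downstream of the INK4A start (WT MEFs have a further one upstream of it) and are missing from KO MEFs and from 3 of the 4 JMJD3 lists, whereas KLF4 peaks sit at or just upstream of all 3 starts in both KLF4 lists.

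Cdkn2b, which encodes INK4B and lies 11.6 kb from Cdkn2a, had no peak within 5 kb in any list. The closest was the WT MEF peak between ARF and INK4A, at 20.6 kb. Mtap, the next gene on the other side, had none near its TSS in any list.

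Read against all genes, the missing Cdkn2a peaks were common for their score. On day 5, 2 of the 2 CDK inhibitor genes with a FLAG peak in WT cells had none with JMJD3, as did 31.8% of all genes with a FLAG peak. In KO cells on day 5 this held for 0 of 2 (20.5% of all genes), on day 10 in WT cells for 1 of 2 (41.3%) and on day 10 in KO cells for 1 of 2 (25.1%), Cdkn2a in both cases. Genes whose best FLAG peak was in the lower-scoring 50% of its list, as that of Cdkn2a was in each of the 4 FLAG lists, had no peak with JMJD3 in 65.4% of cases on day 5 in WT, 46.5% on day 5 in KO, 67.4% on day 10 in WT and 50.8% on day 10 in KO. The score split was chosen after seeing the data. When each list was cut to the 3045 highest-scoring peaks, the length of the shortest list, Cdkn2a kept a peak in WT MEFs and in no other list.

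Cdkn1c differed in this respect. Its FLAG peaks were in the top 25% of their lists in all 4 pairs, a class in which 5.7% of genes on day 5 in WT (72 of 1264, Wilson 95% interval 4.55 to 7.11%), 2.13% on day 5 in KO, 17% on day 10 in WT and 5.19% on day 10 in KO had no peak with JMJD3. On day 5 in WT cells Cdkn1c was among those 72 genes, and in the other 3 pairs its peak was kept. None of the 5 CDK inhibitor genes without a FLAG peak had one with JMJD3 in any of the 4 pairs, and such peaks were rare among all genes without a FLAG peak, at 1.12% on day 5 in WT, 2.47% on day 5 in KO, 1.3% on day 10 in WT and 2.42% on day 10 in KO.

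**Figure D3:**
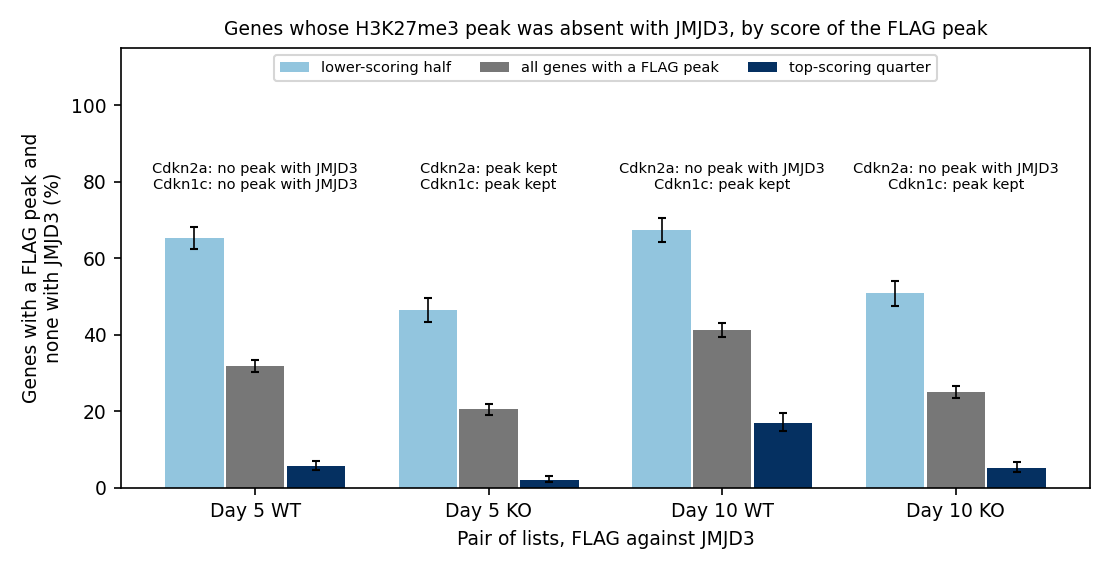
Share of genes marked within 5 kb of a TSS in the FLAG list and not in the JMJD3 list (vertical axis, %), for 4 pairs of lists and 3 classes of genes by the score of the FLAG peak, with Wilson 95% intervals that cover counting error only. Cdkn2a belongs to the lower-scoring class, with shares of 46.5 to 67.4%, and Cdkn1c to the top-scoring class, with shares of 2.13 to 17%.

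At Cdkn1c, the gene encoding the CIP/KIP protein p57, the peak lay over the gene body at chr7:143459180-143460405, 591 to 817 bp downstream of the nearest start, in 9 of 10 lists. In MEFs its score was 29.05 in WT (percentile 77.4) and 19.69 in KO (percentile 80.0). On day 5 it was 79.02 in WT with FLAG (percentile 96.0) and not called in WT with JMJD3, against 49.69 (93.9) in KO with FLAG and 26.02 (71.6) in KO with JMJD3. On day 10 it was 28.81 (90.7) and 21.53 (87.4) in WT with FLAG and JMJD3, and 28.32 (89.8) and 45.88 (94.8) in KO with FLAG and JMJD3. The single list without the peak was thus the one from WT cells with extra JMJD3 on day 5, and the day 10 WT list with JMJD3, the shortest of all, had it.

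The neighbouring peaks of the imprinted domain did not all follow. In day 5 WT cells with JMJD3, only the site at chr7:143445131-143446550, 14446 to 14866 bp downstream of the Cdkn1c starts, remained, and its percentile was 97.1 (96.2 with FLAG). This site was called in 10 of 10 lists. Missing from the same list were the peak at Phlda2, another imprinted gene of the domain, which 9 lists had, and the site at chr7:143437654-143438934, which 7 lists had and which was absent from 3 of the 4 JMJD3 lists. A further site 3635 to 3904 bp upstream of the Cdkn1c starts was called in WT MEFs and in 3 of the 4 FLAG lists and in none of the JMJD3 lists. Kcnq1, the nearest gene on one side, had a peak near its TSS in 10 of 10 lists and Slc22a18, on the other side, in 0.

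**Figure D4:**
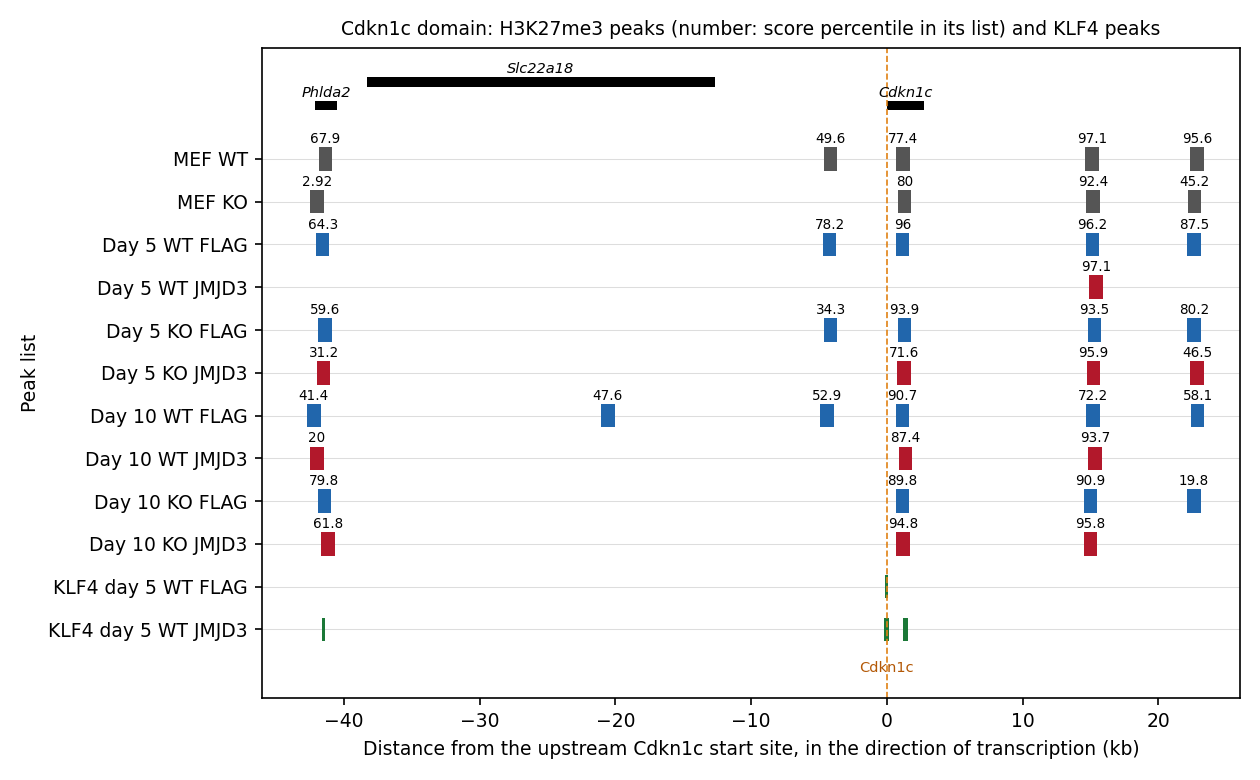
H3K27me3 peaks (bars with their score percentile) and KLF4 peaks by list around Cdkn1c, against distance from its upstream start in kb in the direction of transcription, with gene bodies on top. In day 5 WT cells with JMJD3 only the site near 15 kb is left, at percentile 97.1, and both KLF4 peaks found only with JMJD3 lie where the FLAG list has H3K27me3 peaks.

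Comparing genotypes without extra JMJD3, the Cdkn2a peak of WT MEFs was the 1 of 2 WT peaks at CDK inhibitor genes that KO MEFs lacked (35.6% of all genes with a WT peak lacked one in KO). Among FLAG cells, 0 of 2 WT peaks were missing in KO on day 5 (17.8% of all genes) and 0 of 2 on day 10 (18.4%). The KO MEF list held 4113 peaks against 6954 in WT. With the lists cut to equal length, Cdkn2a still had a peak in WT MEFs, at percentile 7.03, and none in KO MEFs, but with a score of at least 20 it had none in either, and Cdkn1c was then the gene with a peak in WT (29.05) and none in KO (19.69). That limit compares scores of unstated scale between lists, and by percentile Cdkn1c was at 77.4 in WT MEFs and 80.0 in KO MEFs (48.3 and 73.0 at equal length). On day 5, both genes lacked a peak with JMJD3 in WT and had one with JMJD3 in KO. They were among 294 such genes of 596 (49.3%) that had a FLAG peak in both genotypes and none with JMJD3 in WT, and of the 2057 genes whose peak was kept in WT, 96.2% kept it in KO.

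The 5 genes without a peak near a TSS differed in what lay around them. Cdkn2c, encoding INK4C, had a site 7386 to 8484 bp from its nearest start, beyond the gene's 3' end in 9630013D21Rik and Gm12811, in 5 lists: day 5 WT with JMJD3, both day 5 KO lists, day 10 WT with FLAG and day 10 KO with JMJD3. Its percentile was 13.5 in day 5 WT with JMJD3, 60.4 and 13.9 in day 5 KO with FLAG and JMJD3, 58.3 in day 10 WT with FLAG and 24.9 in day 10 KO with JMJD3, and neither MEF list had it. Cdkn2d, encoding INK4D, lay between a site at S1pr5, found in 10 of 10 lists with percentiles of 91.6 to 100 46.0 kb or more from its start, a second S1pr5 site in 8 lists, and one at Ap1m2, found in 8 lists 20.4 to 20.8 kb away. Cdkn1a, which encodes the p53 target p21, had no H3K27me3 peak within 91 kb in any list. Cdkn1b, which encodes p27, had 1 peak within 50 kb in 1 list, at Gpr19 in day 5 KO cells with JMJD3, 32.0 kb from its start.

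KLF4 peaks were found at each of the 7 genes. Within the gene and 50 kb on each side, 7 of 7 had a KLF4 peak with FLAG (59.5% of all genes) and 7 of 7 with JMJD3 (67.1%). Within 1 kb of a TSS, a distance added after seeing the data, the counts were again 7 of 7 with FLAG (24.4% of all genes) and 7 of 7 with JMJD3 (32.9%). At the INK4-ARF locus, KLF4 peaks stood at or just upstream of 3 starts in both lists. The INK4A peak, chr4:89282689-89282901 with FLAG and chr4:89282679-89282861 with JMJD3, lay 497 and 487 bp upstream of the start, and its sequence above holds 1 match to the KLF letters. The ARF and Cdkn2b peaks covered the starts themselves. Counting each peak once, the 7 genes had 18 KLF4 peaks with FLAG and 23 with JMJD3, and 17 of each overlapped, which is 94.4% and 73.9%, against 84.2% and 61.8% over the whole lists.

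The 6 KLF4 peaks at these genes that the JMJD3 list added were 2 near Cdkn2d, 2 upstream of Cdkn1a and 2 around Cdkn1c, and none was at Cdkn2a or Cdkn2b. Both at Cdkn1c, at chr7:143459522-143459831 in the gene and chr7:143502432-143502690 at Phlda2, lay inside H3K27me3 peaks of day 5 WT cells with FLAG (chr7:143459406-143460405 and chr7:143502106-143503105) that had no overlapping peak with JMJD3. Over the whole list, 160 of the 5493 added KLF4 peaks (2.91%) lay on any H3K27me3 peak of these FLAG cells, and 69 of the 160 on one with no overlapping peak with JMJD3. Of the 8898 shared KLF4 peaks, 139 (1.56%) lay on any such peak and 78 of the 139 on one with no overlapping peak with JMJD3, while 46.4% of all H3K27me3 peaks of the FLAG list had none. The KLF4 list with JMJD3 was longer, with 14391 peaks against 10655.

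No position of FLAG-tagged JMJD3 was called within 50 kb of Cdkn2a or Cdkn1c. Of the 3229 genes with an H3K27me3 peak in day 5 WT cells with FLAG, 57.2% had such a position with OSKM and 14.1% with OSlowKM. Within the gene and 50 kb on each side, 4 of 7 genes had a JMJD3 position with OSKM (55.6% of all genes), Cdkn2c, Cdkn2d, Cdkn1a and Cdkn1b, and 3 of 7 with OSlowKM (14.1%), the same without Cdkn2d. Within 1 kb of a TSS there were 3 with OSKM (17.7%), Cdkn2c, Cdkn1a and Cdkn1b, and 2 with OSlowKM (2.96%), Cdkn2c and Cdkn1a. The position nearest to Cdkn2a was 144.6 kb from a start with OSKM and 560 kb with OSlowKM, that nearest to Cdkn2b was 173 kb and 589 kb, and that nearest to Cdkn1c was 87.9 kb and 426 kb. The study's own ChIP-qPCR primers for JMJD3 at INK4A amplify chr4:89282369-89282429, 177 to 237 bp upstream of the start, and neither a JMJD3 position nor an H3K27me3 peak overlapped this stretch in any list. The nearest H3K27me3 peak was that of WT MEFs, 3063 bp away.

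**Figure D5:**
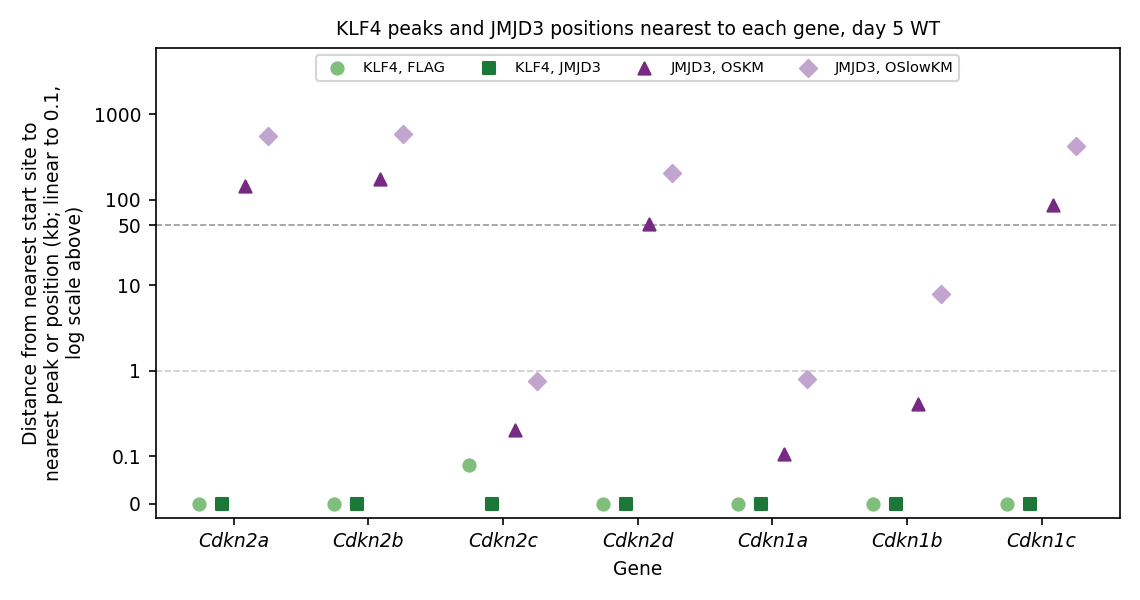
Distance from the nearest start of each CDK inhibitor gene to the nearest KLF4 peak (2 lists) and JMJD3 position (2 lists), in kb on an axis that is linear to 0.1 and logarithmic above, with dashed lines at 1 and 50 kb. KLF4 stands within 0.1 kb of a start of all 7 genes in both lists, whereas JMJD3 with OSKM stands within 1 kb at Cdkn2c, Cdkn1a and Cdkn1b and beyond 80 kb at Cdkn2a, Cdkn2b and Cdkn1c.

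JMJD3 positions fell inside KLF4 peaks at Cdkn2c and Cdkn1a. Of all OSKM positions, 18.9% lay inside a KLF4 peak of the FLAG list and 25.1% inside one of the JMJD3 list, against 13.3% and 18.9% of the OSlowKM positions. The OSKM position at Cdkn2c, 201 bp downstream of the GENCODE start at chr4:109667189, fell inside the KLF4 peak of both lists. It lay 190 bp from the 1 match to the KLF letters in the RefSeq promoter shown above. That promoter is placed by a different start and lies downstream of the GENCODE one. Cdkn1a had 5 positions with OSKM, the most of the 7 genes. Those at 106 bp upstream and 1007 bp downstream of a start lay inside KLF4 peaks of both lists, and the promoter shown above holds no match to the KLF letters. At Cdkn1b the position 408 bp from a start lay 322 bp from the nearest KLF4 peak. With OSlowKM, the 3 genes each had 1 position, 548 bp (Cdkn2c), 203 bp (Cdkn1a) and 860 bp (Cdkn1b) from the closest OSKM position, and none of the 3 fell inside a KLF4 peak. The OSlowKM list as a whole held 2284 positions against 14067 with OSKM.

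The promoters of the members differed in base composition. RefSeq promoters, 250 bases before to 50 after a start, were matched for 6 of the 7 genes and gave 9 promoters. The ratio of observed to expected CpG was 1.04 at ARF (higher than or equal to 95.9% of 32851 promoters), 1.04 at Cdkn1b, 0.823 and 0.553 at the 2 starts of Cdkn2c, 0.786 and 0.0892 at those of Cdkn1a, 0.722 at Cdkn2b, 0.681 at Cdkn2d and 0.442 at INK4A, against a median of 0.384 over all promoters. INK4A and ARF, which share a gene, thus had promoters of unlike CpG content. KLF letters were in 2 of the 9 promoters (ARF and Cdkn2c) and in 17.6% of all. In the central 200 bp of KLF4 peaks, they were in 6 of the 18 peaks at these genes with FLAG (35.5% of all peaks) and in 10 of 23 with JMJD3 (33.6%). SOX letters (ACAANG) were in 2 of the 9 promoters (41.2% of all), OCT letters (ATGCNAAT) in 0 of the 9 (3.15% of all) and AP-1 letters (TGANTCA) in 0 of the 9 (7.81% of all).

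Around the inhibitors, 58 other genes of the same pathways were listed: cyclins, CDKs, the RB and E2F family, the p53 pathway, regulators of Cdkn2a and genes of the senescence secretome. On day 5, 11 of them had a FLAG peak in WT and 8 of these had none with JMJD3. Of all genes, 14.7% had a FLAG peak and 31.8% of those had none with JMJD3. In KO the counts were 10 and 6 (13.7% and 20.5%). Of the pathway genes without a FLAG peak on day 5, 0 had one with JMJD3 in either genotype (1.12% of all genes without a FLAG peak in WT and 2.47% in KO). On day 10, 7 of the 58 had a FLAG peak in WT and 2 of these had none with JMJD3 (12.1% and 41.3% for all genes). In KO the counts were 9 and 2 (12.8% and 25.1%). Of the rest of the 58, without a FLAG peak, 1 gene in WT and 4 in KO had a peak with JMJD3. Of all genes without a FLAG peak, 1.3% in WT and 2.42% in KO did. Those absent with JMJD3 on day 5 in WT were the cyclin genes Ccna1 and Ccnd2, Cdk4, which encodes a target of INK4 proteins, E2f6 and E2f8, the polycomb gene Bmi1, and Igfbp3 and Igfbp7, which encode secreted binding proteins. Bmi1, a repressor of the INK4-ARF locus, had a peak in 8 of 10 lists and lacked it with JMJD3 on day 5 in WT and KO alike. Trp73 of the p53 family, Cbx8, a polycomb gene, and Tbx2, another repressor of the locus, had one in 10 of 10 lists. Twist1 had a peak in 2 lists, day 10 KO with FLAG and with JMJD3. E2f5 had one in 1 list, day 5 KO with FLAG, and Vegfa in 1, day 10 KO with JMJD3.

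The pattern of Cdkn2a over the 10 lists was shared by 9 other genes of 21910 and that of Cdkn1c by 18. The 5 closest to Cdkn2a by the mean difference in percentile over its 6 lists were Dnase2a (14.3 points), Sp7 (17.9), Ptprn2 (22.5), Cfap58 (23.0) and Jph1 (26.7). Those closest to Cdkn1c over its 9 lists were Col15a1 (10.4), Defb25 and Rem1 (15.1 each), Neurog2 (16.1) and Gp5 (21.8).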

How the data were processed

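Reads had been aligned to mm10 with bowtie2 (Bowtie2 2.2.0 in the submitters' processing notes) and peaks called per library by the authors, using DFilter (H3K27me3) or MACS2 (KLF4, JMJD3). Drosophila chromatin was added as a spike-in, and the authors scaled the H3K27me3 reads by the Drosophila reads mapped. Whether scaled reads entered the peak calls is not given in the sources used here. The deposited H3K27me3 lists hold 1000 bp intervals, each with the score that the authors' caller gave it (6.56 to 200, scale not stated), used here as a rank within the list and, in 1 alternative, with a limit of 20 applied to every list. KLF4 lists hold intervals and the JMJD3 lists 1 bp positions, without values. The lists carry no read numbers, and those that the study gives for its libraries were not used here; a more deeply sequenced library can give more peaks. Groups came from the sample labels, and 6 of the 20 samples (4 inputs and 2 H3K27ac samples) have no list here and were not analysed here.

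TSSs were those of GENCODE M21 basic protein-coding transcripts (the GRCm38 assembly, the same build as mm10), with an overlap of at least 1 bp. Promoters were taken from RefSeq (GRCm38.p6) and other sequence from that genome. Motifs were exact letters on both strands, N being any base: KLF GGGNGTGG, SOX ACAANG, OCT ATGCNAAT and AP-1 TGANTCA. Wilson 95% intervals cover counting error only. Python 3.11.15, pandas 2.3.3, scipy 1.17.1 and pysam 0.24.0 were used. Gene counts equalled those of bedtools 2.31.1 in 10 of 10 lists, and the overlap code was tested on simulated peaks. Alternatives were other distances, other TSS sets, score limits and lists of equal length. The members and gene lists were chosen with earlier results of these data known. All 7 members were named. From each other list, up to 4 genes with a peak in the most lists were named, and every gene with a day 5 WT FLAG peak and none with JMJD3. The nearest gene on each side was named for Cdkn2a, Cdkn2b and Cdkn1c, and the 5 genes most like Cdkn2a and Cdkn1c were given.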

Additional observations from a re-analysis of the deposited data

Results flagged for a closer look

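Between FLAG and JMJD3 lists, the score percentile of the H3K27me3 peak near a TSS differed with opposite signs in some pairs of groups, with a list without a peak counted as 0. The lists were of unequal length, which by itself shifts a percentile. None of these differences was tested, since each group is 1 library. On day 5, the best peak at Cdkn2a was at 46.5 with FLAG and none was called with JMJD3 in WT (a difference of -46.5), and it was at 14 with FLAG and 51.1 with JMJD3 in KO (37.1), where the 2 peaks do not overlap. In KO cells alone, the difference at Cdkn2a was 37.1 on day 5 and -20.8 on day 10. At Cdkn1c on day 10 it was -3.31 in WT and 5.08 in KO. In KO cells, the difference at Cdkn1c was -22.3 on day 5 and 5.08 on day 10. With each list cut to its 3045 highest-scoring peaks, Cdkn2a had no peak in any day 5 or day 10 list, so that neither of its contrasts remained. Cdkn1c on day 10 was then at 84.3 with FLAG and 87.4 with JMJD3 in WT, and at 81.9 and 91.7 in KO, which is the same sign in both genotypes. On day 5 in KO it was at 88.7 and 39.1, still opposite in sign to day 10 in KO.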

How the results depend on the processing

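Of 116 values recomputed under other settings, 84 stayed within 1.5 times the value reported and 32 did not. With all annotated TSSs, with peaks on the gene body (chosen after seeing the data), with 100 kb in place of 50 kb, with the wider 50% of each KLF4 list and with 1 kb from a TSS for KLF4 and JMJD3 (also chosen after seeing the data), no count left that range. Within 1 kb of a TSS the count of H3K27me3-marked genes was 1, Cdkn1c, in WT MEFs, both day 5 KO lists and the day 5 WT, day 10 WT and day 10 KO FLAG lists. The count of genes with a FLAG peak and none with JMJD3 was then 1 on day 5 in WT and 0 on day 10 in WT and KO, and that of WT MEF peaks missing in KO was 0. Within 10 kb, Cdkn2c was added, giving counts of 1 in day 5 WT with JMJD3 and 2 in day 10 KO with JMJD3, 2 genes with a FLAG peak and none with JMJD3 on day 10 in WT, and 1 gene with a peak in WT and none in KO on day 10. With a score of at least 20 the gene with a peak in WT MEFs and none in KO MEFs was Cdkn1c in place of Cdkn2a, at the same count of 1, and the counts were 0 in KO MEFs and 1 in WT MEFs, in both day 5 KO lists and in the day 5 WT, day 10 WT and day 10 KO FLAG lists, and the FLAG peaks absent with JMJD3 were 1 on day 5 in WT and 0 on day 10 in WT and KO. Lists cut to the shortest gave 1 in the same day 5 and day 10 lists, and again 1 absent with JMJD3 on day 5 in WT and 0 on day 10 in WT and KO. Of the settings run for H3K27me3, only the 10 kb window, all annotated TSSs and the gene body could have added a peak at Cdkn1c in day 5 WT cells with JMJD3, and none of them did. The KLF4 and JMJD3 counts within 10 kb stayed within that range. No replicates exist, so none could be left out, and no paired analysis was possible because each group is 1 library and no result comes from a test. Cells at different stages cannot be told apart in these populations, and a call made or missed near the score threshold says little about the amount of the mark.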
